A study of Mus musculus with 8 samples.

Results

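The Ifi200 cluster, the PYHIN gene family of mouse chromosome 1, was followed in RNA-Seq values of tumor-associated macrophages (TAMs). Its members were taken by name from the gene table, as the rows whose symbol was Ifi203, Ifi204, Ifi205, Ifi207, Ifi209, Ifi211, Mndal or Pyhin1. Of these 8 symbols, 7 had a row among the 53247 genes of the table. Pyhin1 had none, and RefSeq lists that name as a synonym of Ifi209. All 7 members passed the filter on low values, which kept the 13850 genes that averaged 1 or more per 1e+06 of a sample's total. Their means over the 8 samples ran from 67.9 CPM (counts per 1e+06 reads) for Ifi205 to 332 CPM for Ifi204.

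The samples were 4 from WT mice and 4 from miR-21 null mice, both of the strain labelled C57/BL6 and given as 10 weeks old. LLC cells, a mouse Lewis lung carcinoma line, were implanted s.c. in every animal at 8 weeks of age. Macrophages positive for CD45, CD11b, MHC II and F4/80 were sorted from the tumors 14 days later. No further agent was given. The null allele was in all cells of the host and not only in its macrophages, while the implanted LLC cells were the same for both genotypes. The samples are labelled as biological replicates, but the labels do not state how many mice went into each, and the title of miR-21 null replicate 1 holds a pair of numbers. P-values therefore measure the spread between these samples.

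PYHIN proteins carry an N-terminal pyrin domain, through which proteins bind each other, and most also carry a C-terminal HIN domain that binds DNA. Macrophages use several of them to detect DNA that lies outside its normal place, and they are known as interferon-induced genes. Human cells have a much smaller family, with IFI16, MNDA, AIM2 and PYHIN1, so single mouse members have no simple human counterpart.

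The step between low values gave a depth of 20.2 to 33.4 (in 1e+06 reads) per sample, and a single read counted for 0.0300 to 0.0495 CPM. Mir21a, the deleted gene, was listed at 0.0001 CPM in all 8 samples, the value the authors' table gives to a gene without reads, and so could not check the genotype labels. Vmp1, the gene whose annotated 3′ end takes in the Mir21a locus, was at 115 to 133 CPM in WT and 373 to 426 CPM in miR-21 null samples, so the samples fell apart by label there. The markers of the sort were present, and 0 of 10 macrophage genes passed the threshold. Of these, Adgre1, which encodes F4/80, was at 542 to 583 CPM in WT and 399 to 466 CPM in miR-21 null samples (log2 fold change −0.38, adjusted p = 0.00140, limma), and Csf1r had a log2 fold change of −0.48 (adjusted p = 0.00538, limma), both under the fold limit. The summed level of the 10 genes was 12955 to 14522 CPM in WT and 13641 to 16060 CPM in miR-21 null samples, of which Lyz2 made up a mean of 4640 and 6116 CPM. The part of these markers in the values of the cluster was not tested.

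On GRCm38 the members lie on chromosome 1 between 173630917 and 174031810, a stretch of 401 kb. The whole cluster, with Aim2 at its proximal end, spans 681 kb. All members but Ifi209 are on the minus strand. In order along the chromosome, GENCODE places Ifi209 at 173630917 to 173647928, Ifi207 at 173723427 to 173741747, Ifi204 at 173747293 to 173766943 and Mndal at 173849126 to 173942491. Ifi211 follows at 173896345 to 173913046, Ifi203 at 173920407 to 173942672 and Ifi205 at 174011998 to 174031810. The annotated locus of Mndal encloses that of Ifi211 and overlaps that of Ifi203, and 155 of its exonic bases are shared on the same strand with other genes.

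Promoter windows from RefSeq (GRCm38.p6), each with 250 bases before and 50 after a gene's start, were at hand for 6 members in 8 windows. They were searched on both strands for the core of the interferon-stimulated response element (ISRE), GAAANNGAAA, which reads TTTCNNTTTC on the other strand. An ISRE is a DNA element bound by interferon regulatory factors in cells that respond to type I interferon. A core was found in 5 of the 6 members, all but Ifi209, against 3.44% of the 32851 windows of all genes. The stretches below show this shared element, written 5′ to 3′ on the strand of the gene, with the matched core in capitals and, for Ifi209, the 10 bases nearest to it.
Ifi205, chr1:174031756-174031905, minus strand: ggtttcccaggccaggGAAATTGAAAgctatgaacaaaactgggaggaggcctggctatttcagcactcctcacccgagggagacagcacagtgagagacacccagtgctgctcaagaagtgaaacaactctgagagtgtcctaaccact
Ifi211, chr1:173913047-173913196, minus strand: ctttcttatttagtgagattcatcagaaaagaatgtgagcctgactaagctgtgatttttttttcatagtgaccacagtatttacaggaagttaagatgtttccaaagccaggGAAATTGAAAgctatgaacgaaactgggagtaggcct
Ifi207, chr1:173741810-173741959, minus strand: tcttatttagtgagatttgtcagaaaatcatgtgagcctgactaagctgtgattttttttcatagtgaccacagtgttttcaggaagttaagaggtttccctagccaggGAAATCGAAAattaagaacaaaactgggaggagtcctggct
Ifi203, chr1:173942493-173942642, minus strand: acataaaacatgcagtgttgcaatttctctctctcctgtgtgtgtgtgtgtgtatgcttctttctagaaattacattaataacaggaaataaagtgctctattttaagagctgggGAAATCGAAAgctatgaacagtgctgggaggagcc
Mndal, chr1:173880188-173880337, minus strand: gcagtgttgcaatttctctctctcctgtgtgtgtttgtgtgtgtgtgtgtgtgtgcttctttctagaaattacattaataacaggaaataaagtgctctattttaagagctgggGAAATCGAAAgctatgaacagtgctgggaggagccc
Ifi209, chr1:173630709-173630858, plus strand: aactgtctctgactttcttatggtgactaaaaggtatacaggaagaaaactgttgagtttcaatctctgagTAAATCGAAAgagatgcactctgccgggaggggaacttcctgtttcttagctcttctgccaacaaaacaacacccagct

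The core read GAAATTGAAA in Ifi205 and Ifi211 and GAAATCGAAA in Ifi207, Ifi203 and Mndal. It began 134 bases before the annotated start in Ifi205 and 35 to 41 bases before it in the other 4 genes. A further match on the other strand was TTTCACTTTC, 23 bases after the start of Ifi205, and TTTCTCTTTC lay 54 bases before the start of a second Mndal window. In Ifi209 the nearest 10 bases, 79 before the start, differed from GAAATCGAAA by G1T, counted from the 5′ end of the core. GAAATCGAAA, on either strand, is in 0.0487% of all windows. Over the core and the 25 bases on each side, Ifi203 and Mndal were identical at 60 of 60 bases, Ifi205 and Ifi211 at 54, Ifi205 and Ifi207 at 52, and Ifi203 and Ifi205 at 40. The same search over the cluster's other genes gave a core in 9 of the 12 cluster genes with a window. The gamma-activated sequence TTCNNNGAA, its own reverse complement, was in 0 of the 6 members and in 8.30% of all windows, and the PU.1 core GAGGAAG was in 0 of the 6 and in 13.6% of all windows. These matches describe letters in the windows, and binding was not measured.

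The deleted miRNA is shown with its seed, bases 2 to 8, in capitals, because the members' 3′ UTRs were searched for its complement.
mmu-miR-21a-5p: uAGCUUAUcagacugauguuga
Its 7-base site ATAAGCT and 8-base site ATAAGCTA were found 0 times in the longest annotated 3′ UTR of any of the 7 members, which ran from 246 bases in Ifi205 to 2129 bases in Ifi203. Among the 11480 tested genes for which a 3′ UTR is annotated, the 7-base site was in 8.16% and the 8-base site in 2.31%.

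In miR-21 null TAMs, 2 of the 7 members rose past the threshold, which asks for an adjusted p of no more than 0.005 together with more than 1.5-fold. They were Ifi205, at 2.84-fold, and Ifi211, at 1.65-fold, and 0 members fell past it. Over all tested genes 7.12% passed in either direction, 2.89% higher and 4.23% lower. An adjusted p of no more than 0.005 at any fold was reached by 3 members (14.3% of all tested genes), and one of no more than 0.05 by 4 members (36.0% of all tested genes). The groups did not overlap for 4 members, 3 of them higher and 1 lower, where 35.1% of all tested genes had groups apart, 9.44% higher and 25.7% lower. The median log2 fold change of the members was 0.29, against −0.10 over all tested genes. Fold changes throughout are miR-21 null over WT on the log2(CPM + 1) scale from limma, with p adjusted by Benjamini-Hochberg over all tested genes. In sorted bulk samples, more RNA per cell and more cells of a type that expresses a gene cannot be told apart.

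**Figure D1:**
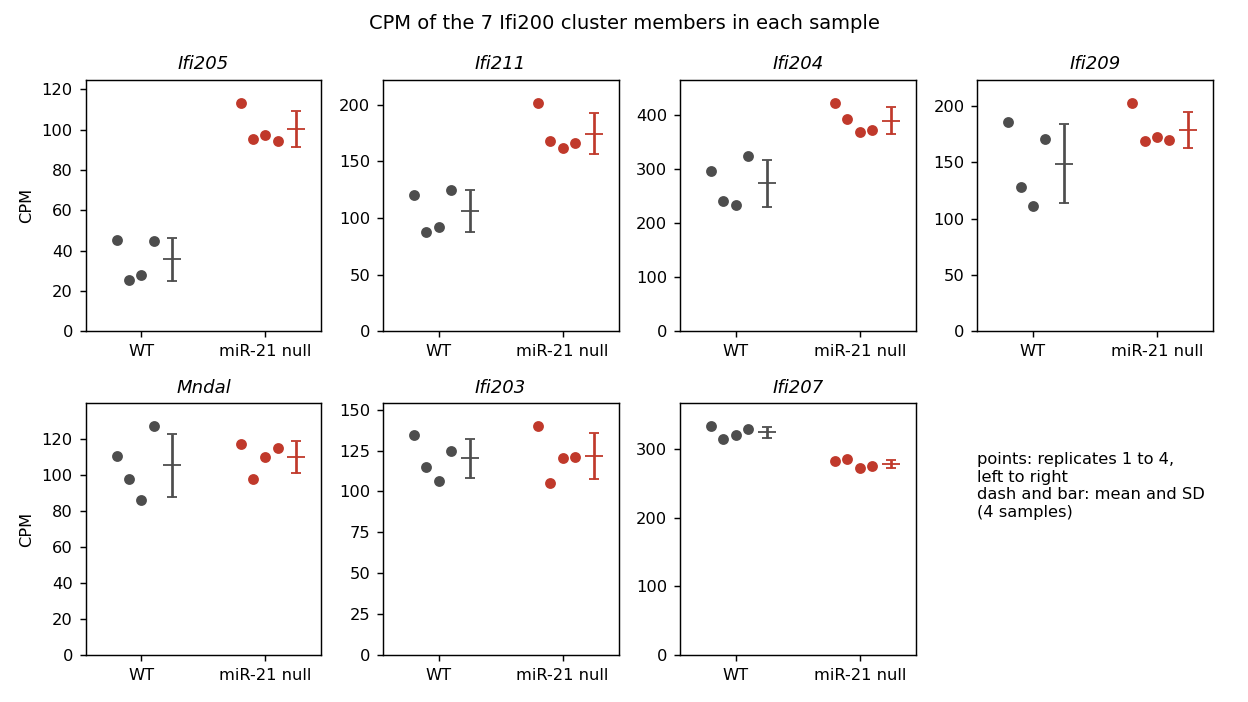
Level of each of the 7 members in CPM (vertical axis, from 0) in the 4 WT and 4 miR-21 null samples, each point 1 sample, in the order of replicates 1 to 4 from the left, with a dash and bar for the mean and SD. The groups lie apart for Ifi205, Ifi211, Ifi204 and, in the opposite direction, Ifi207, and they overlap for Ifi209, Mndal and Ifi203.

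Ifi205 encodes p205, a PYHIN protein of macrophages that has been linked to expression of the inflammasome adaptor Pycard. It was at 45.02, 25.3, 27.8 and 44.9 CPM in WT replicates 1 to 4 and at 113, 95.3, 97.4 and 94.4 CPM in miR-21 null replicates 1 to 4. The highest WT sample was below the lowest miR-21 null sample, and the WT replicates fell into a higher pair, 1 and 4, and a lower pair, 2 and 3. The mean was 35.8 ± 10.7 CPM (SD, n = 4) in WT and 100.1 ± 8.92 CPM (SD, n = 4) in miR-21 null TAMs. The log2 fold change was 1.504 (SE 0.18, 95% interval 1.11 to 1.90, adjusted p = 0.000256, limma). Ifi205 passed the threshold in all 10 other settings and with each of the 8 samples left out.

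Ifi211, the member whose transcript shares most sequence with Ifi205, rose as well. Its values were 120, 88.1, 92.3 and 125 CPM in WT replicates 1 to 4 and 202, 168, 162 and 166 CPM in miR-21 null replicates 1 to 4. Every miR-21 null sample was above every WT sample, and miR-21 null replicate 1 stood above the others. Means were 106 ± 18.8 CPM (SD, n = 4) and 175 ± 18.4 CPM (SD, n = 4), with a log2 fold change of 0.72 (SE 0.12, 95% interval 0.46 to 0.99, adjusted p = 0.00154, limma). The call was lost without WT replicate 3 (0.66, adjusted p = 0.00581) and when the filter on low values was dropped (0.72, adjusted p = 0.00985).

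Ifi204 encodes p204, a DNA sensor that acts through STING in macrophages, and was the member with the most CPM in miR-21 null TAMs, while Ifi207 had more in WT TAMs. WT replicates 1 to 4 were at 296, 241, 233 and 324 CPM and miR-21 null replicates 1 to 4 at 423, 394, 368 and 373 CPM, so that the groups did not overlap. Means were 274 ± 43.9 CPM (SD, n = 4) and 389 ± 25.05 CPM (SD, n = 4). The log2 fold change of 0.52 (SE 0.10, 95% interval 0.29 to 0.75) had an adjusted p of 0.00420 (limma), but the 1.43-fold difference was under the fold limit. It passed both limits under median of ratios (0.64) and without WT replicate 4 (0.60).

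Ifi209 was at 186, 128, 111 and 171 CPM in WT replicates 1 to 4 and at 203, 169, 173 and 170 CPM in miR-21 null replicates 1 to 4. WT replicate 1 exceeded 3 of the miR-21 null samples and WT replicate 4 exceeded 2, so the groups overlapped. The log2 fold change was 0.29 (SE 0.15, adjusted p = 0.151, limma), with a 95% interval from −0.039 to 0.62 that leaves room for no difference and for a rise of the size seen in Ifi204. It was 0.16 (adjusted p = 0.361) without WT replicate 3 and 0.40 (adjusted p = 0.0451) without WT replicate 1.

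Mndal, a relative of the human myeloid nuclear differentiation antigen known for slowing cell growth, was at 110, 97.5, 86.2 and 127 CPM in WT replicates 1 to 4. In miR-21 null replicates 1 to 4 it was at 117, 97.6, 110 and 115 CPM, all within the WT range. Its log2 fold change was 0.074 (SE 0.11, 95% interval −0.17 to 0.32, adjusted p = 0.630, limma). Ifi203, a PYHIN member also described as a DNA sensor, was at 135, 115, 107 and 125 CPM in WT and at 140, 105, 121 and 121 CPM in miR-21 null replicates 1 to 4. The samples of both genotypes were interleaved, with a log2 fold change of 0.015 (SE 0.094, 95% interval −0.19 to 0.22, adjusted p = 0.917, limma). Under median of ratios Ifi203 was at 0.13 (adjusted p = 0.376) and Mndal at 0.19.

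Ifi207, a member with a long repeat region between its domains, went the other way. It was at 333, 315, 320.5 and 328 CPM in WT replicates 1 to 4 and at 282, 285, 272 and 274 CPM in miR-21 null replicates 1 to 4, which is the smallest spread among the members in either genotype relative to the mean. Every miR-21 null sample was below every WT sample, with means of 324 ± 8.13 CPM (SD, n = 4) and 278 ± 6.02 CPM (SD, n = 4). The log2 fold change of −0.22 (SE 0.047, 95% interval −0.32 to −0.11) had an adjusted p of 0.00594 (limma) and passed neither limit. Under median of ratios, which moved the median of all genes by 0.10, it was −0.10 (adjusted p = 0.166, limma), no longer under 0.05. Lower values without overlap were common in these libraries, at 25.7% of all tested genes.

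**Figure D2:**
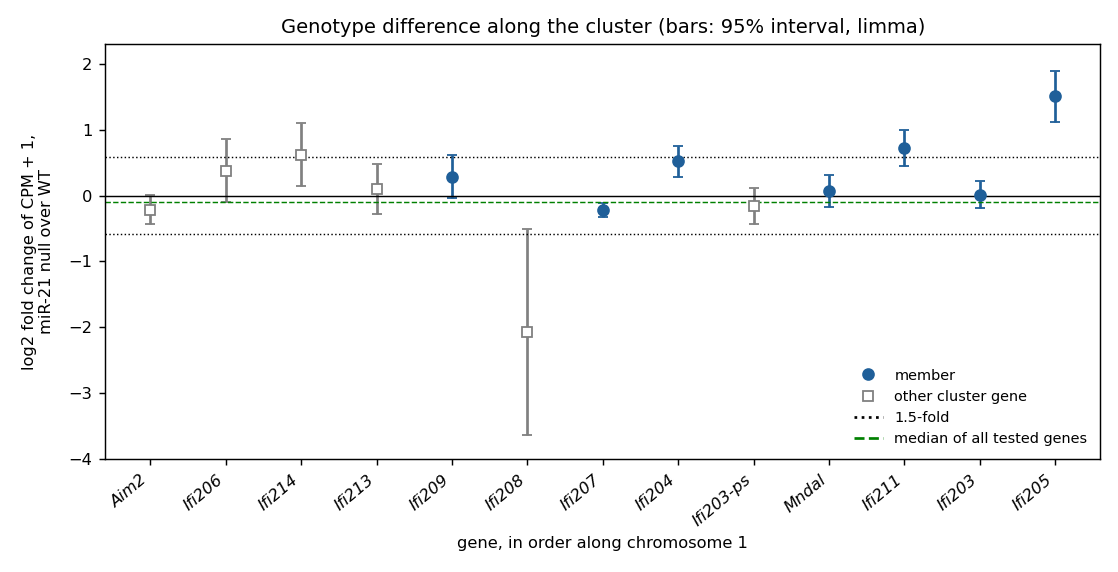
Log2 fold change, miR-21 null over WT, with its 95% interval from limma (vertical axis) for the 13 tested genes of the cluster in their order on chromosome 1 (horizontal axis, not to scale), filled circles for members and open squares for the other genes. Dotted lines mark 1.5-fold and the dashed line the median of all tested genes, and Ifi205 is the highest at 1.504, with Ifi203 beside it at 0.015.

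Neighbors in the cluster had unlike values. Ifi203, the nearest member to Ifi205, had a log2 fold change of 0.015, and Mndal, whose locus encloses Ifi211, had 0.074. Around the ISRE cores printed above, Ifi203 and Mndal are identical, and Ifi205 and Ifi211 share 54 of 60 bases. Ifi207, with 52 of 60 bases in common with Ifi205, had a log2 fold change of −0.22. Outside the cluster, 40 other genes of the table lie within 500 kb, 24 of them olfactory receptors, and 0 of the 40 passed the filter on low values.

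Because members differ in length, levels between genes were compared as CPM per kb of annotated exon. In WT TAMs the order was Ifi207 at 94.7, Ifi204 at 76.9, Ifi211 at 59.5, Ifi209 at 42.0, Mndal at 29.0, Ifi203 at 17.9 and Ifi205 at 8.56 CPM per kb. Ifi204 and Ifi211, Ifi211 and Ifi209, and Ifi209 and Mndal overlapped in their spread over the 4 samples, but within each of the 4 libraries the first of each pair was above the second. In miR-21 null TAMs the order was Ifi204 at 109, Ifi211 at 97.8, Ifi207 at 81.3, Ifi209 at 50.4, Mndal at 30.3, Ifi205 at 24.0 and Ifi203 at 18.1 CPM per kb. There Ifi204 overlapped with Ifi211, and Mndal with Ifi205, again with the first above the second in each of the 4 libraries. Ifi207 was thus first in WT and the third in miR-21 null TAMs, and Ifi205 went from the last place to the one before it. Per kb of the longest coding transcript, Ifi204 was first in both genotypes, at 119 and 170 CPM per kb, and Ifi205 was the fourth in miR-21 null TAMs, at 62.1 CPM per kb.

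The reads of all members together came to 1114 ± 140 CPM (SD, n = 4) in WT and 1353 ± 85.2 CPM (SD, n = 4) in miR-21 null samples. Ifi205 held 3.16% ± 0.574 (SD, n = 4) of that sum in WT and 7.39% ± 0.215 (SD, n = 4) in miR-21 null samples. Ifi211 went from 9.50% to 12.9% and Ifi204 from 24.5% to 28.8%, while Ifi207 went from 29.4% to 20.6%. Ifi209 held 13.2% in both genotypes.

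The members were also compared with each other within each library, as log2 ratios of CPM + 1, which at these levels depend little on how the library was scaled. The 21 pairs were compared between genotypes with two-sided exact permutation tests over samples, which cannot go below 0.0286 with 4 samples a group, and p was adjusted over the pairs. In 16 pairs the ratios did not overlap between genotypes, each with an exact p of 0.0286 and an adjusted p of 0.0375. Pairs share members, so the 16 are not separate results, and a change in 1 member enters all of its pairs. The share among pairs of other genes was not computed, while 35.1% of single tested genes had groups apart. Ifi205 rose against each of the other 6 members. Against Ifi207 its log2 ratio went from −3.19 ± 0.39 to −1.47 ± 0.12 (SD, n = 4 each), a difference of 1.72, and the log2 ratio of Ifi203 to Ifi205 differed by −1.49. Even against Ifi211 the ratio of Ifi205 differed by 0.78, from −1.58 ± 0.18 to −0.79 ± 0.044 (SD, n = 4 each). Ifi204 rose by 0.74 against Ifi207 and fell by 0.20 against Ifi211.

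The other 5 pairs, whose ratios overlapped, did not pass the limit of 0.05. Ifi203 to Mndal, with the least difference of the 21 at −0.059, had an adjusted exact p of 0.457. The ratio of Ifi204 to Ifi209 differed by 0.23 (adjusted exact p = 0.0667, and 0.0353 with a pseudocount of 10) and that of Ifi207 to Mndal by −0.29 (adjusted exact p = 0.0667). Ifi203 to Ifi207 differed by 0.23 and Ifi209 to Mndal by 0.21, both with an adjusted exact p of 0.09.

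**Figure D3:**
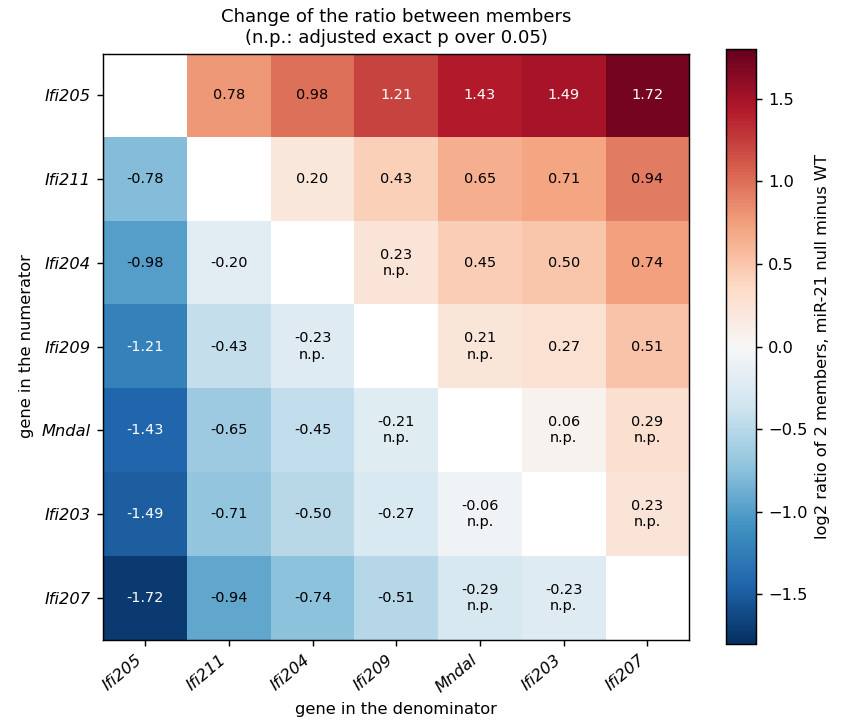
Difference in the log2 ratio of each pair of members, miR-21 null minus WT, for all 21 pairs (gene in the row over gene in the column, color and number giving the difference in log2 units, and n.p. marking an adjusted exact p over 0.05). The row of Ifi205 holds the largest differences, up to 1.72 against Ifi207, and the pair of Ifi203 and Mndal the least, at −0.059 as Ifi203 over Mndal.

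Within a genotype the members moved together. WT replicates 1 and 4 were above WT replicates 2 and 3 in all 7 members, Ifi207 included. Of the miR-21 null samples, replicate 1 was the highest in 6 of the 7 members, and for Ifi207 it was replicate 2. With each genotype's mean subtracted, the correlation of log2 values over the 8 samples was positive in all 21 pairs, from 0.30 for Ifi207 with Mndal to 0.96 for Ifi205 with Ifi211. Ifi204 and Ifi207 had a correlation of 0.76 within genotypes and of −0.74 over the 8 samples as they stand. These correlations share libraries and, for several pairs, sequence, and are given as a description.

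**Figure D4:**
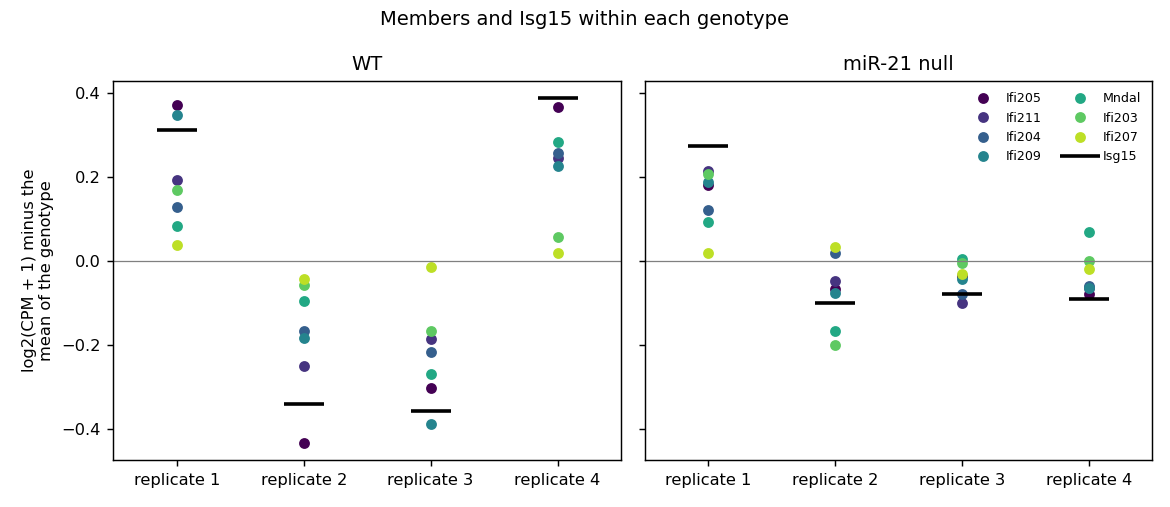
Log2(CPM + 1) of each member and of Isg15 minus the mean of its genotype (vertical axis) in the 8 samples (horizontal axis, by replicate, a panel per genotype), with a colored point for each member and a black dash for Isg15. WT replicates 1 and 4 lie above WT replicates 2 and 3 in all 7 members, and miR-21 null replicate 1 is highest in 6 of them.

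The genes outside the cluster with values most like the members were found by the Pearson correlation, over the 8 samples, with the mean of the members' standardised log2 values, among 13837 tested genes. The nearest was Isg15, a ubiquitin-like protein induced by interferon, with r = 0.97, followed by Ifit1 and Oas3 (both 0.96 when rounded), Phf11b (0.96) and Gm26648 (0.95). Slfn1, Oasl1, Gm20559, Ifih1 and A530032D15Rik came next, at 0.94 to 0.93. Of these 10 genes 0 passed the threshold between genotypes. Isg15 was at 37.3, 23.3, 23.1 and 39.4 CPM in WT replicates 1 to 4 and at 52.9, 40.6, 41.2 and 40.8 CPM in miR-21 null replicates 1 to 4, the same pairing of WT replicates as in the members. Its log2 fold change was 0.53 (adjusted p = 0.0396, limma). With genotype means subtracted, Isg15 (r = 0.997), Rsad2 (0.98), Smim26 (0.98), Oas3 (0.97) and Oasl1 (0.97) were the nearest.

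Members of this cluster resemble each other in sequence, so reads can be divided between them in counting. Of all 50-base windows of its annotated transcripts, Ifi211 shared 72.8% with another gene, 44.7% with Ifi205, 30.1% with Ifi204 and 17.1% with Mndal. Ifi209 shared 33.7%, nearly all with Ifi214, and Ifi204 20.02%, mostly with Ifi211. Mndal shared 19.6%, Ifi205 18.6%, Ifi203 12.2% and Ifi207 7.29% of their windows. At 100 bases the share was 56.9% in Ifi211, 15.04% in Ifi205 and 0.79% in Ifi207. Aim2, with little shared sequence (0.628%), had whole read numbers within 0.02 in all 8 samples, whereas 0 of the 4 values of Ifi205 under 2000 reads were whole. The levels of Ifi211, Ifi209, Ifi204, Ifi205 and Mndal are therefore uncertain to the extent that shared reads were split, and how far this entered the rise of Ifi211 and Ifi205 was not tested. Ifi205 had 562 to 3179 reads a sample.

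**Figure D5:**
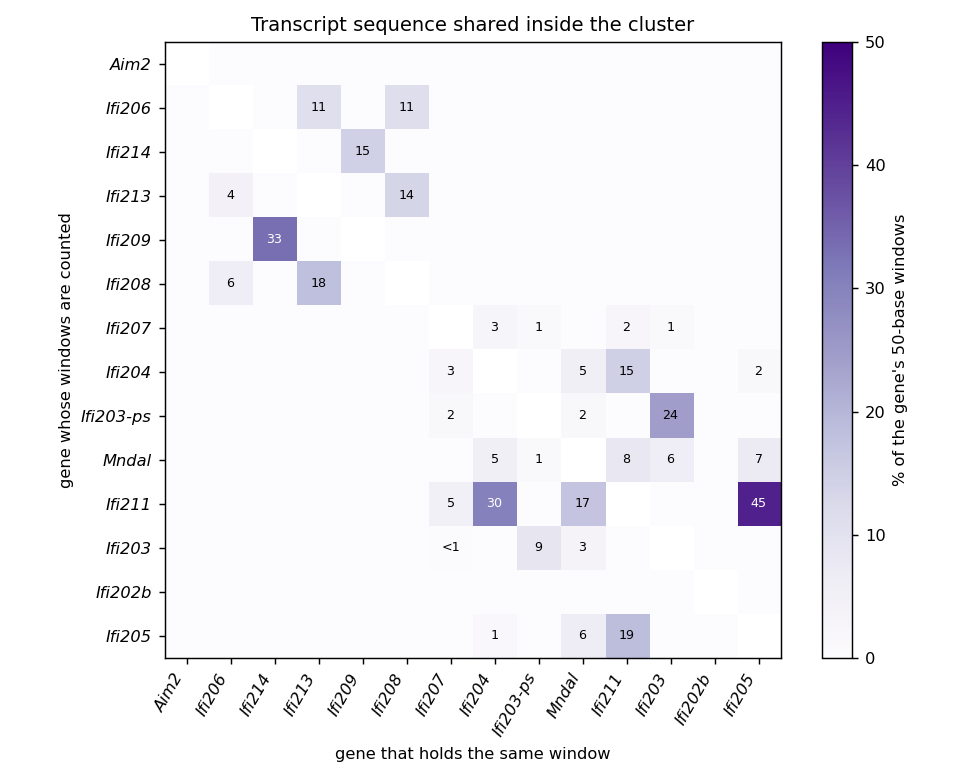
Share of each gene's 50-base transcript windows (rows, percent) that also occur in a transcript of the gene in the column, for the genes of the cluster. Sharing is largest for Ifi211 with Ifi205, at 44.7%, and Ifi207 shares little with any gene. It lies largely within separate sets, which are Ifi209 with Ifi214, Ifi206 with Ifi208 and Ifi213, and Ifi203, Ifi204, Ifi205, Ifi211, Mndal and Ifi203-ps.

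Of the cluster's genes that are not among the members, 7 had a row, 6 passed the filter and 0 of the 6 passed the threshold. Aim2, which binds DNA and assembles an inflammasome with Pycard and Casp1, was at 36.1 ± 5.08 CPM (SD, n = 4) in WT and 30.9 ± 2.69 CPM (SD, n = 4) in miR-21 null TAMs (log2 fold change −0.21, adjusted p = 0.118, limma). Ifi208, with the largest SE of the log2 fold change among the 6, was at 17.1, 11.1, 8.52 and 19.4 CPM in WT replicates 1 to 4. In miR-21 null replicates 1 to 4 it was at 12.2, 5.85, 0.133 and 0.338 CPM. The last pair stands for 3.46 and 10.2 reads, while miR-21 null replicate 1 was within the WT range, and the log2 fold change was −2.07 (SE 0.71, adjusted p = 0.0433, limma). It was −2.72 (adjusted p = 0.00760) without miR-21 null replicate 1 and −1.54 (adjusted p = 0.106) without miR-21 null replicate 3, the ends of its range with a sample left out. Ifi206 (0.38, adjusted p = 0.191), Ifi213 (0.098, adjusted p = 0.682), Ifi214 (0.62, adjusted p = 0.0462) and the pseudogene Ifi203-ps (−0.16, adjusted p = 0.329) did not pass either. With a sample left out, Ifi206 lay between 0.22 (without WT replicate 3) and 0.52 (without WT replicate 4), Ifi203-ps between −0.25 (without WT replicate 3) and −0.095 (without WT replicate 4), and Aim2 between −0.27 (without miR-21 null replicate 4) and −0.13 (without WT replicate 4). Under median of ratios Aim2 was at −0.098, and with a pseudocount of 10 Ifi214 was at 0.17 and Ifi208 at −0.77, against −3.02 for Ifi208 with a pseudocount of 0.1. Ifi202b, whose product lacks the pyrin domain and inhibits AIM2, had 0 to 8 reads a sample and was not tested.

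Among 25 tested genes of cytosolic DNA sensing, the pathway of Ifi204, 2 rose and 0 fell, with a median log2 fold change of −0.11. An unadjusted p under 0.05 was found for 14 of the 25, 5 higher and 9 lower, and for 46.4% of all tested genes. Those past the threshold were Zbp1, a sensor of Z-form nucleic acids, from 60.4 ± 12.4 to 145 ± 13.2 CPM (SD, n = 4 each; 1.27, adjusted p = 0.000114, limma), and Samhd1, which breaks down deoxynucleotides, from 572 ± 45.1 to 1109 ± 86.7 CPM (SD, n = 4 each; 0.95, adjusted p = 3.6e-05, limma). Named here after their values were seen, Tmem173, which encodes STING, had a log2 fold change of 0.50 (adjusted p = 0.000138, limma) and Dnase2a, a lysosomal DNase, one of −0.51 (adjusted p = 0.00111, limma), both under the fold limit, and Mb21d1, which encodes cGAS, had −0.062 (adjusted p = 0.520, limma). Of 9 genes of the AIM2 inflammasome list 3 rose and 0 fell. These were Casp4 (1.12), Casp1 (1.03) and Nlrp3 (0.93), none of them a DNA sensor, while the adaptor Pycard had −0.084.

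Of 16 genes of interferon signaling 3 rose and 1 fell. Among them the inhibitor Socs1 (2.14) and the factor Irf1 (1.63) were higher, and the receptor chain Ifngr1 (−0.72) was lower. Of 10 guanylate-binding proteins, which are best known as targets of IFN-γ, 9 rose and 0 fell, with a median log2 fold change of 1.89 and with Gbp2b (3.03), Gbp4 (2.83) and Gbp2 (2.62) the highest. The call of Gbp2b was lost without the filter on low values (adjusted p = 0.00712, limma). Of 19 antiviral genes of type I interferon 0 passed the threshold in limma and the median was 0.12. An unadjusted p under 0.05 was found for 7 of the 19, 4 higher and 3 lower, and for 46.4% of all tested genes. Rsad2 (0.75, adjusted p = 0.00835, limma) passed under arrayWeights (0.74, adjusted p = 0.00490) and with the replicate block (adjusted p = 0.00236). Side by side, the log2 fold change of Ifi205, 1.504, lay below the median of the guanylate-binding proteins, and those of Ifi211, 0.72, and Ifi204, 0.52, lay above the median of the antiviral genes, as did that of Ifi209, 0.29. Mndal, 0.074, Ifi203, 0.015, and Ifi207, −0.22, lay below both medians.

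In summed level each list of markers of other cells was below that of macrophages, and several markers moved with the genotype. Single genes were not all low. Mean CPM, WT first and miR-21 null second, was 440 and 355 for Ccr2 and 369 and 237 for S100a9. It was 313 and 240 for Csf3r and 192 and 218 for Pecam1, against 150 and 128 for the macrophage gene Mertk. All T and NK, B and dendritic cell markers had means below those of Mertk. The summed level of 11 T and NK cell markers was 29.7 to 46.0 CPM in WT and 12.9 to 52.4 CPM in miR-21 null samples, with 1 of 9 tested genes lower (Cd4, −2.35) and 7 of the 9 with a log2 fold change above 0. Chosen after its values were seen, Cd8a was at 1.92 ± 0.413 CPM (SD, n = 4) in WT and 6.71 ± 3.66 CPM (SD, n = 4) in miR-21 null samples, without overlap, at a log2 fold change of 1.28 (adjusted p = 0.00804, limma). The T cell genes Cd3d (0.0019), Cd3e (0.26), Cd3g (0.29) and Lck (−0.061) of the same list had adjusted p of 0.501 to 0.995 (limma). For 5 B cell markers the summed level was 11.4 to 17.6 CPM and 3.84 to 11.3 CPM, with the single tested gene lower (Cd79b, −1.45). For 8 markers of non-leukocytes it was 195 to 355 CPM and 212 to 296 CPM, with 2 of 7 tested genes lower (Col1a1, −2.29, and Pdgfrb, −1.22). For 6 neutrophil markers it was 769 to 1168 CPM and 574 to 747 CPM, for 6 monocyte markers 692 to 1160 CPM and 600 to 1079 CPM, and for 9 dendritic cell markers 27.3 to 43.6 CPM and 28.1 to 47.8 CPM, with 0 genes past the threshold in limma in any of these lists. An unadjusted p under 0.05 was found for 5 of 6 neutrophil genes (0 higher, 5 lower), 2 of 6 monocyte genes (1 higher, 1 lower) and 6 of 8 tested dendritic cell genes (1 higher, 5 lower), and for 46.4% of all tested genes. The calls of Cd4 and Col1a1 were lost in several of the other settings and with single samples left out, among them without the filter on low values (adjusted p = 0.0137 and 0.0257, limma), and Pdgfrb was under the fold limit with a pseudocount of 10 (−0.37). No marker of these lists was without reads in all samples. Nor was their part in the values of the cluster tested.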

How the data were processed

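RNA from sorted TAMs was sequenced as mRNA libraries. Per the submitters' processing notes, STAR, Partek 7.0 and mm10 were used, and the authors deposited CPM values per gene and sample, raised by 0.0001. The counting rule and its use of strand are not given in the sources used here. Values up to 20 reads were whole, within 0.02 reads, in 72.7% to 73.7% of cases, so no count test was run, and values are limited by 20.2 to 33.4 (in 1e+06) reads and 4 samples per genotype.

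Genotypes were taken from the labels. Log2(CPM + 1) was fitted with limma 3.58.1 (R 4.3.3; lmFit, eBayes with trend) on genes averaging 1 or more per 1e+06 of each sample's total. The threshold, as the study states it for these samples, was 0.005 for the p adjusted by Benjamini-Hochberg and 1.5 for the fold. Ratios of member pairs were compared by exact permutation tests (scipy 1.17.1). Scripts were tested on simulated data. Figures used matplotlib 3.10.9, and gene models were those of GENCODE vM21.

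Named genes were the members, the cluster's other genes, up to 3 genes past the threshold in each direction per list, and the 10 and 5 genes most like the members. A gene that this rule selects is not reported here. Members and lists were chosen with earlier results of these data known. Alternatives were pseudocounts of 0.1 and 10, no filter or one of 5, quantile or median-of-ratios scaling, eBayes without trend, arrayWeights, a replicate block, looser limits and leaving out each sample.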

Additional observations from a re-analysis of the deposited data

Results flagged for a closer look

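In 5 of 28 sets of 4 samples tested among the 14 cluster genes in the table, the highest sample stood further from the other 3 than Dixon's 95% limit allows, where chance gives about 1 set in 20. All were miR-21 null replicate 1, the sample whose title holds a pair of numbers. It was at 113 CPM for Ifi205, 203 CPM for Ifi209, 202 CPM for Ifi211, 69.3 CPM for Ifi206 and 72.2 CPM for Ifi213. The members share libraries and some sequence, so these are not separate events. Without it, the log2 fold changes were 1.44 for Ifi205, 0.65 for Ifi211 and 0.23 for Ifi209, and Ifi205 and Ifi211 still passed the threshold.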

How the results depend on the processing

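The count of members past the threshold was 2 and went to 1 without the filter on low values and without WT replicate 3 (Ifi211 lost; 0.72 and 0.66), and to 4, 1 of them lower, with an adjusted p of 0.05 and no fold limit (Ifi204 at 0.52 and Ifi207 at −0.22 added); with a sample left out it lay between 1 and 3. Ifi204 also passed under median of ratios (0.64). Ifi203 turned to −0.0070 under arrayWeights, and Smim26 to 0.022 under quantile normalization; the cause was not tested. With a sample left out, Ifi203 lay between −0.055 and 0.082, Mndal between −0.016 and 0.17, Ifi204 between 0.45 and 0.60, Ifi211 between 0.64 and 0.80, Ifi209 between 0.16 and 0.40, Ifi205 between 1.36 and 1.63 and Ifi213 between −0.043 and 0.19. The replicate numbers are positions in the sample order and do not pair the samples (correlations of same-numbered samples 0.083, −0.11, −0.14 and 0.22). The titles of miR-21 null replicates 2, 3 and 4 end in 3, 4 and X. By the numbers in the titles, the correlation was 0.14 for WT replicate 3 with miR-21 null replicate 2. It was 0.032 for WT replicate 4 with miR-21 null replicate 3. With the replicate block 2 members passed, Ifi205 (1.504, adjusted p = 0.000339) and Ifi211 (0.72, adjusted p = 0.00109), and 922 genes in all against 986. Ratios of pairs kept their side of 0.05 with pseudocounts of 0.1 (21 of 21) and 10 (20 of 21; Ifi204 to Ifi209 passed, 0.23). Ratio tests with 3 samples in a group cannot reach 0.05. Ifi202b, with 0 to 8 reads, was too low to test, and precision elsewhere is limited by 4 samples per genotype.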
